A study of Mus musculus with 4 samples.

Results

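The levels of 8 genes that encode nuclear receptors were followed across the cell classes, neuron subtypes and ages of the developing mouse superior colliculus. The genes were Rora, Rorb, Nr2f1, Nr2f2, Nr4a2, Esrrg, Thra and Thrb, taken by symbol, and each matched 1 of the 31053 gene rows of the deposited matrix. They stood among 49 mouse nuclear receptor genes of a fuller list. Nuclei were isolated from microdissected superior colliculus, the midbrain centre that receives retinal input and drives orienting movements, of unmodified C57BL/6J mice with no treatment. Tissue came from 1 embryonic age, day 19 (E19), and 3 postnatal ages, day 4 (P4), day 8 (P8) and day 21 (P21), and each stage was 1 library made from pooled tissue of several animals. Age and library can therefore not be told apart, and no p-value is given. Levels are counts of unique molecular identifiers (UMIs, single captured RNA molecules) per 1000000 UMIs of the same nuclei (CPM), with exact 95% Poisson intervals in brackets where they are printed. These intervals cover counting error only.

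Nuclear receptors are transcription factors with a zinc-finger domain that binds DNA and a separate domain that, in many members, binds a small lipid-soluble ligand. Thyroid hormone receptors, encoded by Thra and Thrb, bind the hormone as partners of retinoid X receptors and repress many targets when the hormone is absent. The retinoid-related orphan receptors Rora and Rorb bind DNA alone and act in cell-type choice, daily rhythm and the patterning of sensory areas. Nr2f1 and Nr2f2 (COUP-TFI and COUP-TFII) shape regional and interneuron identity, Nr4a2 (Nurr1) is needed by midbrain dopamine neurons and responds to neuronal activity, and Esrrg, an estrogen-related receptor without a known natural ligand, acts on genes of energy metabolism.

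The 4 libraries held between 2249 and 2585 nuclei, 9724 in all, and the median number of UMIs per nucleus was 6828, 9045, 9672 and 11745 in order of age. Pairs of libraries shared between 0 and 3 nucleus barcodes. Classes and subtypes are those of the deposited table of nuclei. Checked against marker genes, the lists for inhibitory neurons, oligodendrocyte lineage, vascular leptomeningeal cells, dividing cells, microglia and endothelial cells were highest in the class of that name in 4 of 4 libraries, and the list for excitatory neurons in 3. The astrocyte list was highest in astrocytes in 2 libraries and in vascular leptomeningeal cells in the other two. For the class named epithelial, the list was highest in another class in each library, and Ttr, Folr1, Foxj1 and Krt8 were all at 0 there at E19, so that class is not described further. Among excitatory subtypes, EN7 had summed levels of the 8 thalamus markers of 12799 CPM at E19 and 9704 CPM at P4, and had fewer than 20 nuclei at the other ages. In EN12 the summed cortex markers, 1274 CPM at E19, came from 1 of the 5 genes, Bcl11b, with Tbr1, Neurod2 and Neurod6 among those at 0.

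Across the ages, the thyroid hormone receptors differed in opposite directions in neurons. Thrb was higher and Thra lower at P21 than at E19 in both neuron classes and in astrocytes. Thrb measured 34.3, 67.8, 79.4 and 256 CPM in excitatory neurons at E19, P4, P8 and P21. In inhibitory neurons it measured 78.7, 152, 181 and 391 CPM, so that inhibitory neurons were higher at each age. The P21 library was the highest of the 4 in both classes, and the intervals of E19, 31.0 to 37.9 CPM, and P21, 248 to 264 CPM, did not overlap in excitatory neurons.

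The log2 ratio of P21 over E19 for Thrb, with 5 CPM added to each level, was 2.73 (2.60 to 2.86) in excitatory and 2.24 (2.11 to 2.37) in inhibitory neurons. Astrocytes gave 77.7, 164, 262 and 554 CPM and a ratio of 2.75 (2.43 to 3.10). Vascular leptomeningeal cells, the fibroblast-like cells of the meninges and vessels, gave 54.6, 87.3, 127 and 450 CPM. In neurons the largest step lay between P8 and P21, where the ratio was 1.63 in excitatory and 1.09 in inhibitory neurons, and the smallest between P4 and P8, where it was 0.21 and 0.25. With each nucleus thinned to 2000 UMIs, the share of excitatory neurons with a Thrb UMI was 5.08%, 10.5%, 14.1% and 32.1% at the 4 ages, against 14.6%, 32.9%, 41.1% and 83.0% before thinning.

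Thra gave the opposite course. Excitatory neurons measured 228, 193, 162 and 91.7 CPM from E19 to P21, and inhibitory neurons 245, 218, 189 and 105 CPM. Each age was lower than the one before, with the P21 interval, 86.9 to 96.8 CPM in excitatory neurons, apart from the P8 interval, 155 to 169 CPM. The log2 ratios of P21 over E19 were -1.27 (-1.36 to -1.18) and -1.18 (-1.29 to -1.08). Astrocytes gave 233, 224, 194 and 122 CPM. The oligodendrocyte lineage did not share this course, with 295, 379, 290 and 339 CPM and a ratio of 0.20 (-0.18 to 0.60). Its precursor cells alone measured 257, 303, 209 and 187 CPM.

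Thra overlaps Nr1d1, a clock gene on the other strand, and no source used here states whether the counting used strand. Nr1d1 measured 1.39, 2.95, 6.60 and 10.1 CPM in excitatory neurons, a direction opposite to that of Thra.

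Both trends held inside the neuron subtypes. Of the 23 subtypes with 20 or more nuclei at both ages, Thrb was higher at P21 in 23, past 1 on the log2 scale in 22, with a median of 2.92. In EN12 and IN12 the E19 library held 0 Thrb UMIs, and these enter as lower bounds set at 3 UMIs, 1.97 and 2.52. The exception past that threshold was IN4 at 0.49 (0.26 to 0.73), which already held 526 CPM at E19. Thra was lower at P21 in 23 of 23 subtypes, past 1 in 18, with a median of -1.32 and a narrow range from -1.74 in EN6 to -0.88 in EN13. The plot of changes within subtypes shows the points of Thrb and Thra without overlap on either side of 0.

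**Figure D1:**
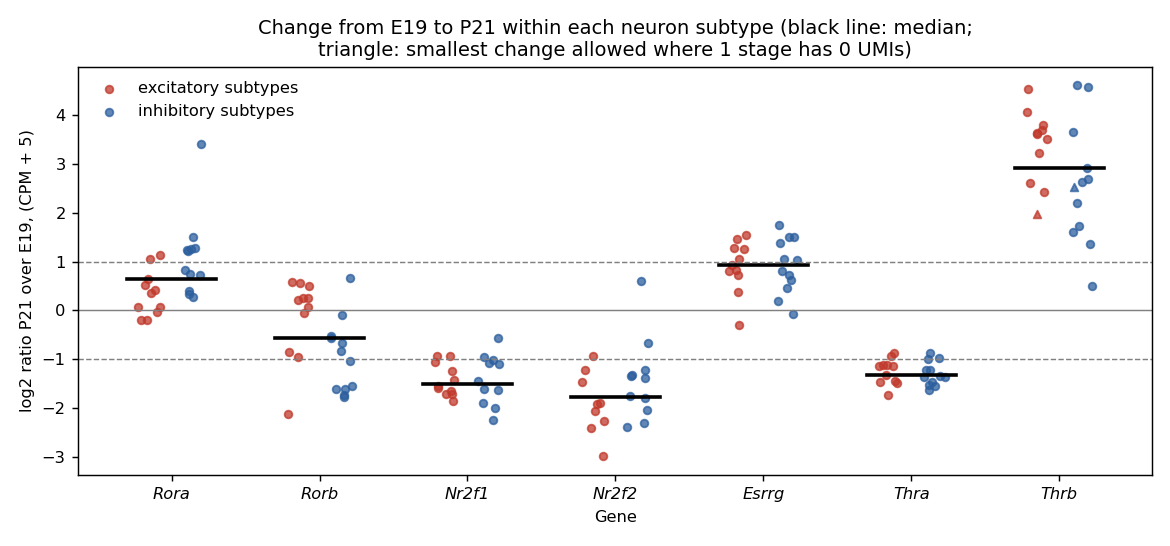
Change from E19 to P21 within each neuron subtype, as the log2 ratio of CPM + 5, with 1 point per subtype that had more than 3 UMIs at 1 of the ages (red excitatory, blue inhibitory), the median as a black line, and triangles for the smallest change allowed where the E19 library had 0 UMIs. Thrb lies above 0 in all 23 subtypes, with medians of 2.92 for Thrb and -1.32 for Thra, and Rorb spreads from -2.13 in EN6 to 0.65 in IN5.

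Because both genes were counted in the same nuclei, the ratio of their UMIs needs no scaling to library size. The genes differ in length, so only its change with age is read. The log2 ratio of Thrb to Thra UMIs in excitatory neurons was -2.73, -1.51, -1.03 and 1.48 at the 4 ages, and in inhibitory neurons -1.64, -0.52, -0.06 and 1.89. Astrocytes gave -1.58, -0.45, 0.44 and 2.18, and vascular leptomeningeal cells -1.91, -0.97, -0.22 and 1.92. In these 4 classes the ratio was higher at each age than at the one before. In vascular leptomeningeal cells, with 12 Thrb UMIs at E19, the intervals of E19 and P4 overlapped, as did those of P4 and P8.

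The oligodendrocyte lineage gave -3.54, -2.03, -0.85 and -2.08, so its P21 value was below that of P8. Its E19 value rests on 5 Thrb UMIs. That lineage held 46 oligodendrocyte precursors (OPCs) of 47 nuclei at E19 and 187 myelinating oligodendrocytes of 306 nuclei at P21. Thrb in OPCs alone was 26.2, 107, 191 and 304 CPM, higher at each age, and in myelinating oligodendrocytes at P21 it was 45.3 CPM. In the 21 neuron subtypes with UMIs of both genes at both ages, the ratio of Thrb to Thra was higher at P21 in 21, with a median change of 4.43 and a smallest change of 1.51.

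**Figure D2:**
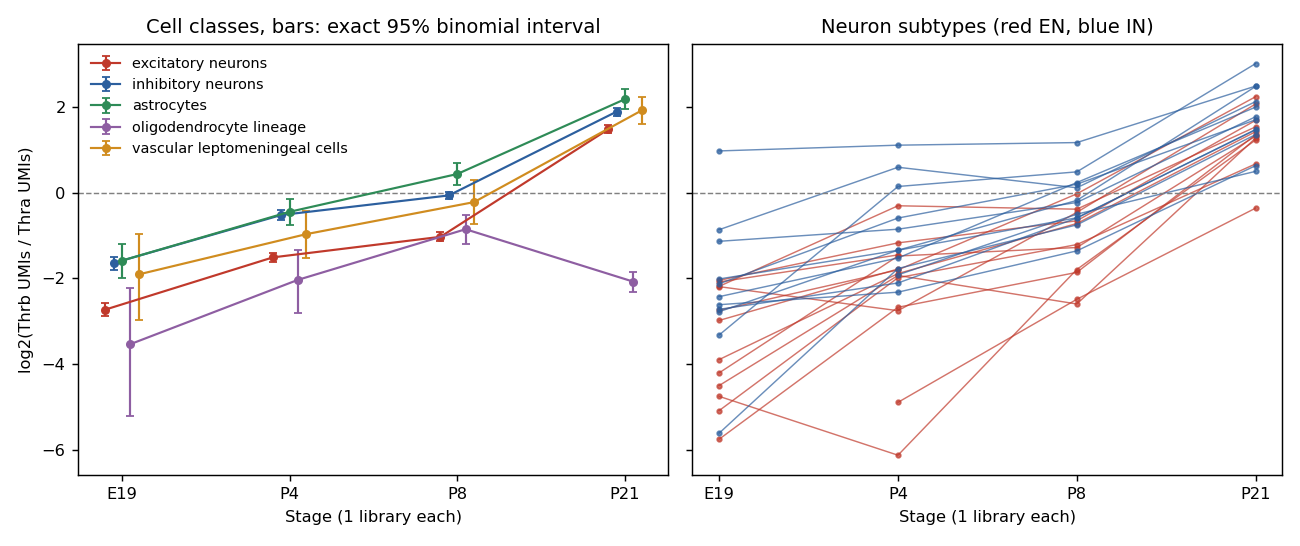
Ratio of Thrb to Thra UMIs (log2) by age, on the left by cell class with exact 95% binomial intervals, on the right by neuron subtype (red excitatory, blue inhibitory), where the dashed line marks equal numbers of UMIs. Excitatory neurons lie at -2.73 at E19 and 1.48 at P21 and inhibitory neurons at -1.64 and 1.89, while the oligodendrocyte lineage ended at -2.08.

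Across subtypes Thrb was far from even. IN4 was highest in 3 libraries, at 526, 690, 540 and 743 CPM, and stood apart from the next subtype, IN7, in 4 of 4 libraries. IN7 measured 172, 298, 214 and 451 CPM. IN11 measured 27.3, 196, 274 and 766 CPM, lowest of these at E19 and with an interval that overlapped that of IN4 at P21. The lowest subtypes by the mean over libraries were EN12, with 0, 7.65, 41.3 and 75.1 CPM, and EN6, with 9.91, 3.01, 48.6 and 180 CPM. At E19 the highest subtype was 15.5 times the median subtype, and at P21 it was 2.74 times, so the spread between subtypes was narrower at the later age.

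Thra was the most even of the 8 genes. By the mean of log2 levels over libraries its highest subtype, IN4, measured 268, 319, 240 and 132 CPM and its lowest, EN8, 172, 131, 118 and 88.0 CPM. IN6, with 325, 267, 215 and 109 CPM, followed IN4 among the subtypes present at each age, and EN1 stood next to EN8. EN11, second by that mean, had only the E19 and P4 libraries, and its 234 and 203 CPM were below the median subtype of both, 247 and 211 CPM. The highest subtype was between 1.32 and 1.51 times the median subtype in each library, and none of the 24 neighbouring pairs in the order was apart in every shared library.

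The stretch before 1 RefSeq start of Thrb is shown because it was the only one of 10 member windows that held the nuclear receptor half-site. That stretch lies inside the GENCODE span of the gene, chr14:17660261-18038090, and not before its outer end. The windows run over the 250 bases before a RefSeq start (build GRCm38.p6), less any bases inside an exon of the same gene. Of the 8 genes, 7 had entries, with 13 starts in all, and 10 windows kept at least 100 bases. Capitals mark, on either strand, the half-site AGGTCA, the GC box GGGCGG and the CCAAT box CCAAT. The Thrb window, chr14:17660710-17660891 on the plus strand, held 1 half-site whose first base was 184 bases before the start, and 2 GC boxes.
Thrb: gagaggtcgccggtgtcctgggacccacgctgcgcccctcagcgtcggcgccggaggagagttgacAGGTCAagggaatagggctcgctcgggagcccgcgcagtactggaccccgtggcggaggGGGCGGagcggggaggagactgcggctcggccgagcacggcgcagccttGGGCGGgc
Over the 32851 promoters of the RefSeq table, searched over 250 bases, 14.0% held AGGTCA, 32.7% GGGCGG and 33.8% CCAAT. The cAMP response element TGACGTCA was in 1.55% of them and in none of the 10 windows. The Thrb windows kept 182 and 135 bases, so these shares are of longer stretches. A match is a description of the letters and not of a bound site.

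Other genes of thyroid hormone transport, conversion and response were measured from a list of 14. In excitatory neurons 5 passed a filter of 20 CPM at the higher age, of which 2 were past 1 higher and 1 lower at P21. In inhibitory neurons 4 passed, with 2 higher and 1 lower. Of all genes that passed, 5.35% were past 1 higher and 10.7% lower in excitatory neurons, and 5.83% and 11.3% in inhibitory neurons. Klf9, a transcription factor gene known to respond to the hormone, measured 3.38, 5.71, 9.55 and 50.4 CPM in excitatory and 1.01, 3.60, 9.57 and 53.2 CPM in inhibitory neurons. Its log2 ratios of P21 over E19 were 2.72 (2.51 to 2.92) and 3.28 (3.00 to 3.45). In both classes Klf9 was under 20 CPM at E19 and passed the filter through its P21 level alone, so it had to be higher at P21.
Slc7a8, an amino acid transporter that also carries the hormone, measured 29.0, 47.4, 54.1 and 76.3 CPM in excitatory neurons, a ratio of 1.26, and the ratio in inhibitory neurons was 1.69.

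Rora had high levels in most classes and was higher at later ages in neurons and astrocytes. Excitatory neurons measured 1946, 1814, 3059 and 3290 CPM and inhibitory neurons 1478, 1680, 2674 and 3897 CPM from E19 to P21. In both, the 2 later libraries were above the 2 earlier ones without overlap of intervals. Log2 ratios of P21 over E19 were 0.76 (0.73 to 0.78) and 1.40 (1.36 to 1.43), so Rora passed 1 in inhibitory but not in excitatory neurons. With subtypes weighted alike the values were 0.21 and 0.83.

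Astrocytes measured 2948, 3509, 4227 and 5694 CPM of Rora, each age higher than the one before. Within that class, protoplasmic astrocytes were higher at each age and fibrous astrocytes were lowest at P21, with levels given under other observations. Vascular leptomeningeal cells were high throughout, at 7179, 6250, 6482 and 7584 CPM. Microglia were low at 35.4, 193 and 237 CPM at the first 3 ages, on 13, 23 and 21 nuclei, and held 1062 CPM at P21 on 33 nuclei, where 1 nucleus gave 33 of the 118 UMIs. In the oligodendrocyte lineage Rora measured 2229, 1554, 2105 and 584 CPM. OPCs alone measured 2298, 1807, 2556 and 2835 CPM, and myelinating oligodendrocytes, which were present in sufficient number at P21 only, 212 CPM. The lower level of the lineage at P21 was thus not seen within OPCs.

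Among neuron subtypes EN12 and IN7 held the most Rora. EN12 measured 8532, 10326, 10928 and 7403 CPM and IN7 4690, 7381, 7561 and 7728 CPM, and IN7 was apart from the next subtype, IN12, in 4 of 4 libraries. IN12 measured 3514, 3914, 4179 and 4422 CPM. The lowest subtypes by the mean over libraries were IN11, with 239, 331, 729 and 2571 CPM, and IN1, with 730, 820, 1009 and 1784 CPM. At P21 the lowest was EN5, at 1725 CPM. IN11 thus had the largest change of any neuron subtype, a log2 ratio of 3.40 (2.93 to 3.92), while EN12 gave -0.20 (-0.28 to -0.13). Of 23 subtypes, the interval of the ratio lay above 0 in 18 and below 0 in 2, EN5 and EN12, and 8 were past 1.

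Rorb, the close relative of Rora, was highest in the excitatory subtypes EN6, EN5 and EN9 and had no common direction with age. The inhibitory subtype IN9 came next, at 622 CPM by the mean of log2 levels over libraries. Excitatory neurons measured 301, 292, 569 and 353 CPM and inhibitory neurons 246, 165, 285 and 171 CPM. P8 was the highest library in both classes. The log2 ratios of P21 over E19 were 0.23 (0.17 to 0.29) and -0.51 (-0.61 to -0.42), on opposite sides of 0. Over the 23 neuron subtypes of both classes the median ratio was -0.57, with 12 intervals below 0 and 4 above, and EN6 gave -2.13. The higher class value of excitatory neurons was thus not seen in the subtype with the most Rorb. Astrocytes measured 502, 472, 731 and 982 CPM, a ratio of 0.96 (0.81 to 1.11), and vascular leptomeningeal cells, where Rora was high, held only 13.6, 46.7, 43.6 and 36.0 CPM.

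The excitatory subtype EN6 held the most Rorb at each age, at 6848, 3862, 3037 and 1560 CPM, with a Rorb UMI in every one of its nuclei. EN5 measured 1919, 1371, 1326 and 989 CPM and EN9 896, 847, 942 and 866 CPM. EN6 was apart from EN5, and EN5 from EN9, in 4 of 4 libraries. EN6 and EN5 were lower at each age than at the one before (in EN5 the P4 and P8 intervals overlapped), with log2 ratios of P21 over E19 of -2.13 (-2.23 to -2.03) and -0.95 (-1.10 to -0.80), and EN9 did not differ beyond counting error at -0.05 (-0.28 to 0.19). The lowest subtypes by the mean over libraries were IN11, between 22.0 and 38.3 CPM, and EN11, at 68.4 and 21.4 CPM in the 2 libraries where it had 20 or more nuclei. The highest subtype was 46.4 times the median subtype at E19 and 8.70 times at P21.

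Within subtypes, the interval of the Rorb ratio of P21 over E19 lay below 0 in 12 of 23 and above 0 in 4. The 7 subtypes past 1 were all lower at P21. Rora and Rorb did not vary together: across 96 profiles of a subtype in a library, centred within each library, Pearson's r was 0.07. Profiles of 1 library share its depth and free RNA, and this r is a description.

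**Figure D3:**
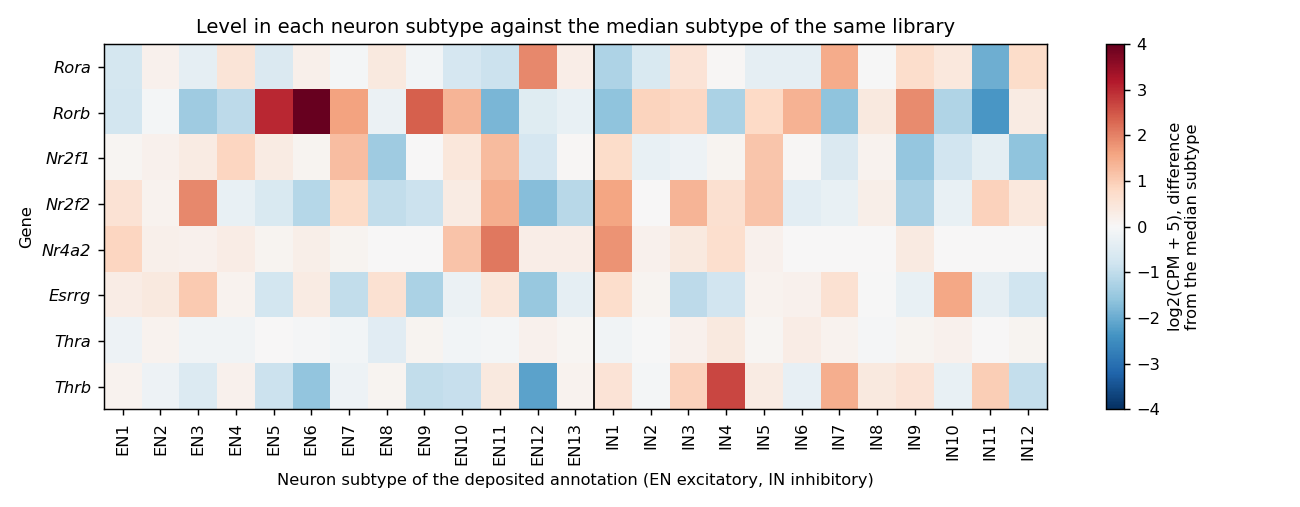
Level of each gene in the 25 neuron subtypes, as the mean over libraries of log2(CPM + 5) less that of the gene's median subtype in the same library, so that colours compare subtypes within a gene and not genes with each other. Rorb stands out in EN6 and EN5, Rora in EN12 and IN7, and Thrb in IN4, while Thra is nearly even; for Nr4a2 most subtypes are at or near 0 UMIs.

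The windows upstream of the Rora start and of the Rorb start at the outer end of the gene are shown because these relatives differed in their subtypes. The Rora window is chr9:68653536-68653785 on the plus strand and the Rorb window chr19:19111197-19111446 on the minus strand (RefSeq, GRCm38.p6), with capitals as above.
Rora: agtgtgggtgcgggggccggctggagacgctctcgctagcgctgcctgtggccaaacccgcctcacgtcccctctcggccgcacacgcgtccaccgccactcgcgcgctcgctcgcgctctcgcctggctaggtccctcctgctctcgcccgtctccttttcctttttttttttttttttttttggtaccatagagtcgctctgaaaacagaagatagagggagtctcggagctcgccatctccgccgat
Rorb: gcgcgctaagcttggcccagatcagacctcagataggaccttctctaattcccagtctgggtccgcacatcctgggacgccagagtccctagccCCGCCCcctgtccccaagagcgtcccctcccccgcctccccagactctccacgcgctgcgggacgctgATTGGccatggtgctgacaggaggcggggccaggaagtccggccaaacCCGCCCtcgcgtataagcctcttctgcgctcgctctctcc
The Rora window held none of the 4 motifs, and the Rorb window held 2 GC boxes and 1 CCAAT box. That says only which letters are in these 250 bases.

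Nr2f1 and Nr2f2 were lower at P21 than at E19 in neurons and astrocytes. Nr2f1 measured 80.6, 79.4, 33.5 and 22.2 CPM in excitatory and 68.6, 60.9, 29.6 and 23.5 CPM in inhibitory neurons. Nr2f2 measured 60.5, 49.9, 14.7 and 15.5 CPM in excitatory and 64.9, 75.8, 20.8 and 20.5 CPM in inhibitory neurons. For both genes the E19 and P4 libraries were above the P8 and P21 libraries, without overlap of intervals. The largest step was P4 to P8, with log2 ratios of -1.13 for Nr2f1 and -1.48 for Nr2f2 in excitatory neurons, and Nr2f2 did not differ between P8 and P21 beyond counting error (0.05, -0.16 to 0.27).

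From E19 to P21 the ratio of Nr2f1 was -1.66 (-1.81 to -1.50) in excitatory and -1.37 (-1.56 to -1.17) in inhibitory neurons, and that of Nr2f2 was -1.68 (-1.85 to -1.50) and -1.45 (-1.66 to -1.25). Astrocytes measured 260, 217, 181 and 125 CPM of Nr2f1 and 134, 153, 51.6 and 27.1 CPM of Nr2f2. In vascular leptomeningeal cells Nr2f2 stayed between 319 and 476 CPM, with a ratio of -0.35 (-0.69 to -0.00034), and Nr2f1 between 162 and 241 CPM. Nr2f2 is a known regulator of vein and stromal identity. In the oligodendrocyte lineage, which was mostly OPCs at E19 and mostly myelinating cells at P21, the ratios were -2.08 for Nr2f1 and -3.18 for Nr2f2. In OPCs alone they were -0.78, on 16 and 14 UMIs, and -2.10, on 14 and 4 UMIs.

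Among neuron subtypes, EN11 and EN7 had enough nuclei only at E19 and P4, before the lower levels of P8 and P21, so the order of the Nr2f genes is given against the median subtype of each library. On that scale Nr2f1 was 1.28 above the median (log2) in EN11, 1.23 in EN7 and 1.11 in IN5. EN11 measured 157 and 142 CPM at E19 and P4 and EN7 122 and 171 CPM, and they were not apart in either library. IN5 measured 166, 134, 61.1 and 37.6 CPM, the highest level at E19. IN12 and IN9 were lowest, with 2, 3, 3 and 0 UMIs in IN12 and 9, 0, 3 and 4 in IN9.
On the same scale Nr2f2 was 1.92 above the median in EN3, 1.57 in IN1, 1.46 in EN11 and 1.37 in IN3. EN3 measured 127, 115, 73.0 and 63.5 CPM, IN1 81.0, 114, 53.2 and 49.4 CPM, and EN11 88.7 and 123 CPM at E19 and P4. IN3, at 152 CPM, was the highest at E19. It was lowest in EN12, with 1 or 2 UMIs in each library, and in IN9, with 0 to 3. Of the 22 subtypes with more than 3 Nr2f1 UMIs at 1 of the ages, 18 had an interval below 0 and 0 above it, and of 20 for Nr2f2 these numbers were 17 and 0.

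Nr2f1 overlaps A830082K12Rik, a long noncoding RNA on the other strand. That RNA measured 72.5, 88.3, 78.4 and 99.5 CPM in excitatory neurons and 64.2, 81.3, 62.0 and 88.6 CPM in inhibitory neurons, and so did not share the lower P8 and P21 levels of Nr2f1. Across subtypes it was the gene most like Nr2f1, with r = 0.76. Without strand in the counting, reads of the 2 genes could not be told apart where they overlap. Esrrg, Thrb and Rora also overlap less known gene models, which held 1541, 350 and 120 UMIs over all libraries.

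Esrrg was higher at P21 than at the 3 earlier ages in both neuron classes. Excitatory neurons measured 258, 246, 221 and 370 CPM and inhibitory neurons 250, 247, 227 and 378 CPM. The ratios of P21 over E19 were 0.51 (0.45 to 0.58) and 0.59 (0.50 to 0.67), and the ratio of excitatory over inhibitory neurons had an interval that held 0 in each library. IN10 was highest at each age, at 536, 637, 614 and 895 CPM, with EN3 next at 349, 500, 433 and 611 CPM and IN1 at 331, 347, 319 and 511 CPM. EN12, at 46.4, 65.0, 69.5 and 145 CPM, and EN9, at 96.0, 66.0, 86.4 and 125 CPM, were lowest. Within subtypes the interval lay above 0 in 19 of 23 and below 0 in 1, EN2.

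In astrocytes Esrrg measured 65.9, 326, 131 and 280 CPM, with a P4 value out of the order of age. Protoplasmic astrocytes alone measured 53.0, 110, 148 and 300 CPM, each age higher than the one before. The P4 value came from fibrous astrocytes, which measured 115, 1077, 49.9 and 154 CPM, with 243 UMIs in 24 of 48 nuclei at P4. Those 48 nuclei also held 535 Ttr UMIs and 12 Foxj1 UMIs, genes of choroid plexus and ciliated ependymal cells, against at most 2 of each in the fibrous astrocytes of the other libraries. Of the 9 nuclei with Foxj1, 8 had Esrrg. The epithelial marker list, which holds both genes, summed to at least 75.2 CPM in each class at P4 and to 687 CPM in astrocytes. The astrocyte markers of the fibrous astrocytes at P4 summed to 1081 CPM, against 1564 CPM at E19 and 4695 CPM at P8. The part of such cells in the P4 value was not tested.

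Nr4a2 was rare, at 6.59, 5.91, 0 and 1.10 CPM in excitatory neurons and 5.20, 9.55, 0.632 and 1.86 CPM in inhibitory neurons. The 0 at P8 allows up to 0.227 CPM (3 UMIs). Between 0% and 5.69% of neurons had a Nr4a2 UMI, and it did not pass the filter of 20 CPM in either class, so no ratio is given. Its highest levels were in EN11, with 26.2 and 9.74 CPM at E19 and P4, in IN1, with 10.2, 22.8, 6.48 and 14.0 CPM, and in EN10. By number of UMIs, the large subtype EN1 gave 51 of the 76 excitatory UMIs at E19 and 32 of 88 at P4, at 10.1 and 5.85 CPM, and EN11 gave 18 and 5. IN1 gave 24 of 31 inhibitory UMIs at E19 and 55 of 61 at P4. IN12 and IN11 held 0 UMIs in all 4 libraries.

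EN10 held 41 Nr4a2 UMIs in 19 of 60 nuclei at P4, or 81.7 CPM, against 0, 0 and 1 UMI at E19, P8 and P21. Of those 19 nuclei, 11 also had a UMI of Slc17a7, the vesicular glutamate transporter of cortical and thalamic neurons, against 4 of the other 41. The median depth was 6452 UMIs with and 8074 without Nr4a2. Slc17a7 in EN10 was 47.8 CPM at P4 and at most 18.5 CPM at the other ages, and whether other tissue in that library had a part in this was not tested.
Of 11 dopamine neuron genes, 0 passed the filter in excitatory and 1 in inhibitory neurons, Drd2, at 15.9, 17.1, 22.2 and 23.6 CPM. The filter reads E19 and P21 only. Slc18a2, the vesicular monoamine transporter, measured 8.93, 35.4, 3.71 and 2.46 CPM in excitatory neurons. No other gene of this list was above 8.53 CPM (Drd2) in that class at P4. Th and Slc6a3 measured 0.0671 and 0.134 CPM there. These are levels of the whole class, and Slc18a2 in EN10 alone is not given.

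**Figure D4:**
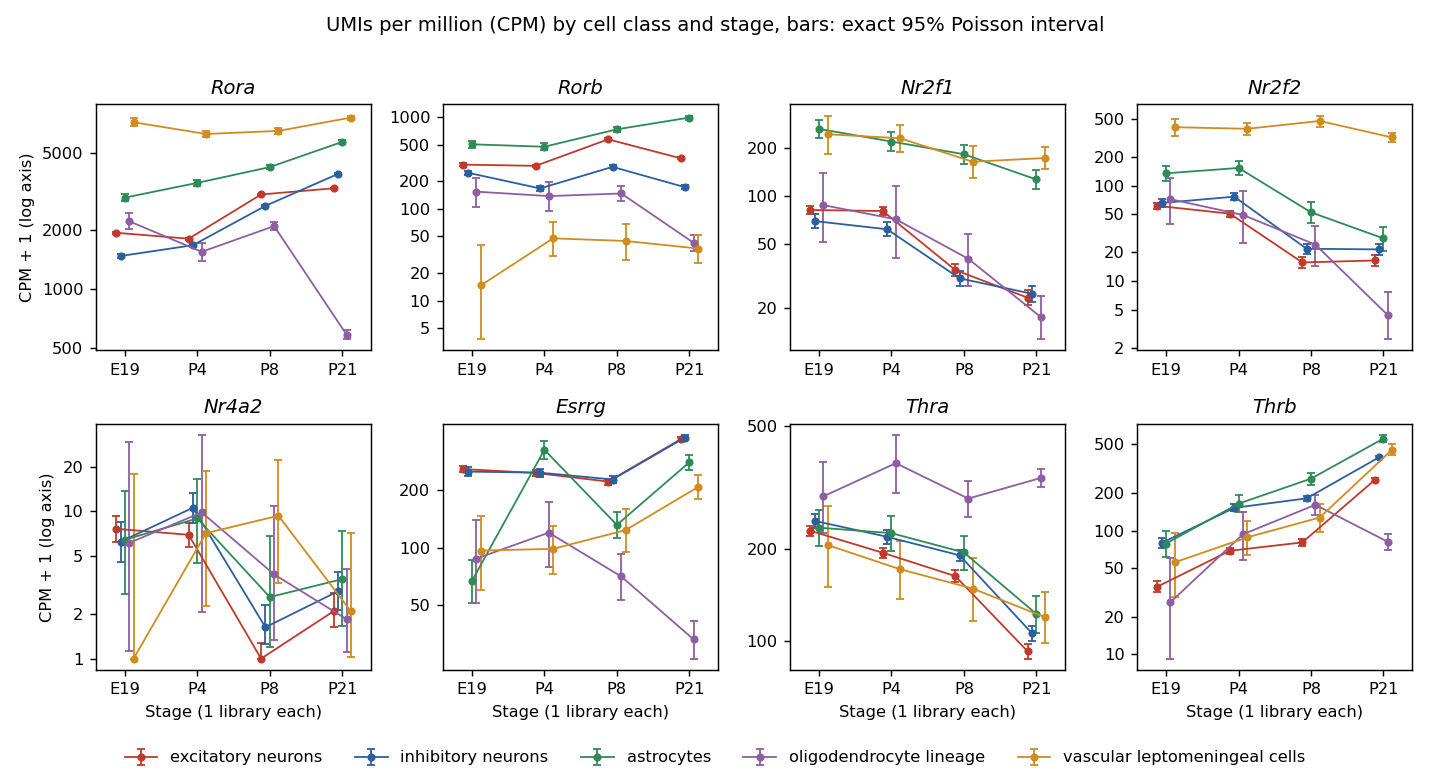
Levels of the 8 genes by age in 5 cell classes, as CPM + 1 on a log axis with exact 95% Poisson intervals. Each point is 1 library. Thrb is higher at P21 (256 and 391 CPM in excitatory and inhibitory neurons) than at E19 (34.3 and 78.7 CPM), Thra and both Nr2f genes are lower in neurons, and Nr4a2 stays under 10 CPM in neurons.

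Between excitatory and inhibitory neurons of the same library, 4 of the 7 genes with enough UMIs kept to 1 side in all 4 libraries, 1 excitatory and 3 inhibitory, beside 17.1% and 31.9% of 6219 genes. Rorb was on the excitatory side, with log2 ratios of 0.29, 0.80, 0.99 and 1.03. Thrb was on the inhibitory side, with -1.09, -1.11, -1.14 and -0.60, as were Thra, between -0.22 and -0.11, and Nr2f2, between -0.56 and -0.09. The interval of Nr2f2 at E19, -0.26 to 0.08, held 0. Rora was on the excitatory side at E19 by 0.40 and on the inhibitory side at P21 by -0.24, with intervals off 0 in 4 of 4 libraries. None of the 7 was past 1 in all 4 libraries, against 0.579% of all genes on the excitatory and 0.547% on the inhibitory side.

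The members' changes with age were set beside those of all genes with 20 CPM or more at E19 or P21. Nr4a2 was under 20 CPM at both ages in each class named here, so it could not be counted among the 8. In excitatory neurons 1 of the 8 genes was past 1 higher at P21 and 3 lower, beside 5.35% and 10.7% of 7650 genes. In inhibitory neurons 2 were higher and 3 lower, beside 5.83% and 11.3% of 7807 genes. In astrocytes 2 were higher and 2 lower, beside 8.6% and 18.2% of 8577 genes. In the oligodendrocyte lineage 1 was higher and 5 lower, beside 14.7% and 28.3% of 8611 genes, and in OPCs alone 1 was lower, Nr2f2. All-gene medians were -0.06, -0.04, -0.24 and -0.31. Median-of-ratios scaling moved these by 0.12, 0.10, 0.28 and 0.45 and gave 6.86% higher and 8.88% lower in excitatory neurons, 7.16% and 9.79% in inhibitory neurons and 12.9% and 12.1% in astrocytes.

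Direction and gene length went together for 6 of the 8. Rora, Esrrg and Thrb, which span 734, 606 and 378 kb, were higher at P21 in both neuron classes, and Nr2f1, Nr2f2 and Thra, which span 10.8, 14.8 and 28.4 kb, were lower. Rorb, which spans 181 kb, was higher in excitatory neurons as a class, though lower in EN6 and EN5. It was lower in inhibitory neurons, and Nr4a2 has no ratio. Over all genes in excitatory neurons, the median ratio was -0.48 for the 1817 genes under 20 kb, -0.02 for those of 20 to 50 kb and 0.10 for those of 200 kb or more, with 27.0%, 5.65% and 6.09% past 1 lower. The shares past 1 higher in the same length classes were 2.97%, 4.16% and 10%. Less the median of its length class, Nr2f1 was at -1.17, Nr2f2 at -1.19, Thra at -1.25 and Thrb at 2.63 in excitatory neurons. In inhibitory neurons Nr2f1 and Nr2f2 were at -0.88 and -0.96 on that scale, no longer past 1. The part of length, or of intronic reads, in these changes was not tested.

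The 8 genes lie on 8 chromosomes, at chr9:68653786-69388246 (Rora), chr19:18930605-19111196 (Rorb), chr13:78188973-78199757 (Nr2f1), chr7:70351944-70366735 (Nr2f2), chr2:57106830-57124003 (Nr4a2), chr1:187608791-188214885 (Esrrg), chr11:98740638-98769006 (Thra) and chr14:17660261-18038090 (Thrb) of GRCm38, and all are annotated as protein coding.

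Of the 41 other nuclear receptor genes, 13 passed the filter in excitatory neurons, with 6 past 1 higher and 0 lower at P21. In inhibitory neurons 15 passed, with 7 higher and 0 lower. The all-gene shares were 5.35% higher and 10.7% lower in excitatory and 5.83% and 11.3% in inhibitory neurons. Of the higher receptor genes, 5 in each class were under 20 CPM at E19 and passed through their P21 level alone. The counts thus favour higher genes and are read as a description. In inhibitory neurons Nr1d2, a repressor of the daily clock, measured 7.21, 17.4, 37.5 and 80.2 CPM, a ratio of 2.80, and Nr3c2, the mineralocorticoid receptor, 54.7, 75.3, 123 and 363 CPM, a ratio of 2.62. The largest lower ratios of the list were those of Nr2f2 and Nr2f1 in both classes.

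Genes of coregulators, the proteins that receptors recruit to activate or repress genes, were set beside all genes. Of all genes that passed the filter, 5.35% were past 1 higher and 10.7% lower at P21 in excitatory neurons. In inhibitory neurons these shares were 5.83% and 11.3%, so a list of 16 is too small to be set apart from them. All 16 passed the filter, 1 was past 1 higher and 0 lower in each class, and medians were 0.05 and 0.15. That 1 was Ppargc1b, a coactivator of estrogen-related receptors, at 27.7, 50.8, 68.0 and 94.3 CPM in excitatory neurons and a ratio of 1.60, and at 22.3, 44.8, 49.6 and 104 CPM in inhibitory neurons. The most negative ratios were those of Carm1, at -0.54 and -0.60, and Tbl1x, at -0.48 and -0.46.

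Of 15 core clock genes, 8 passed the filter in each class, and 4 were past 1 higher and 0 lower. The all-gene shares were 5.35% higher and 10.7% lower in excitatory and 5.83% and 11.3% in inhibitory neurons. All 4 higher clock genes in each class were under 20 CPM at E19 and passed through their P21 level alone. They therefore had to be higher, and the count is read as no more than that. Nr1d2 was the highest ratio in both classes, at 2.69 and 2.80, followed by Bhlhe40 at 1.46 in excitatory and Per1 at 1.58 in inhibitory neurons. Cry1 was the most negative, at -0.83 and -0.42. No source used here states the time of day of collection.

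The genes whose pattern over the 96 neuron profiles was most like that of each receptor were ranked by Pearson's r among 6763 genes, as a description. For Rora these were Fat3 (0.61), Arntl (0.55), Npas2 (0.53) and Atrnl1 (0.51); Arntl and Npas2 encode core clock factors. Rorb was most like Nek11 (0.68), Snap25 (0.60), Gpr45 (0.60) and Pdcd4 (0.59). Thrb was most like Tox3 (0.68), Lmo1 (0.65), Hs3st3b1 (0.63) and Klf12 (0.61), and Thra was most like Hspa8 (0.58), Nnat (0.55) and Tubb2b (0.53). Esrrg was most like Vwc2l (0.59), its relative Esrrb (0.57), Elavl2 (0.55) and Oxr1 (0.54).

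After A830082K12Rik, Nr2f1 was most like Ak5 (0.62), Dlg1 (0.53) and Phlpp2 (0.50). Nr2f2 was most like Ndst4 (0.55), Astn2 (0.54), Tm9sf4 (0.54) and Gm29514 (0.51), and Nr4a2 like Ror1 (0.45), Kcnma1 (0.44), Zic1 (0.40) and Nfia (0.39). Without centring on the library, 0 of the 4 genes remained among the first 4 for Nr2f1, Nr2f2 and Thrb, so these lists hold for differences within a library only. Among the 8 receptors themselves, the highest r was 0.33, between Nr2f1 and Nr2f2, and the lowest -0.48, between Rora and Nr2f2.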

How the data were processed

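Per the labels, nuclei were captured with 10x Genomics 3′ v3 chemistry. The submitters' processing notes name Cell Ranger 3.0.2 and the genome build mm10. The deposited matrix holds counts of UMIs per gene and nucleus, not normalised by the authors; strand setting, filters on nuclei, doublet handling and naming of classes are not given in the sources used here. Doublets were not called again, and 10 columns of the deposited nucleus table were not used.

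The 8 genes and the gene lists were chosen with earlier results of these data known. UMIs were summed per library and class or subtype (20 nuclei or more) and divided by the summed UMIs of those nuclei (CPM). Log2 ratios added 5 CPM, with intervals from exact binomial limits of the 2 counts. Shares of nuclei were also taken after thinning each nucleus to 2000 UMIs, which left out none. With 1 library per age there is no test across animals. The computation was tested on simulated counts.

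Genes named beside the 8 were, per list and neuron class, the 2 largest ratios in each direction among genes of 20 CPM or more, per receptor the 4 highest r (mitochondrial, ribosomal, haemoglobin and sex-linked genes left out), and per receptor the 3 highest and 2 lowest subtypes. Genes and subtypes named for other reasons (Nr1d1, A830082K12Rik, Slc17a7, Foxj1, Ttr, fibrous astrocytes) were picked after their values were seen. Some genes that this rule names are not reported here, though counts over their lists include them. Alternatives were another pseudocount (20 CPM), scaling, weighting of nuclei or subtypes, thinning, other filters and neurons classed by their own UMIs; the length classes, OPCs alone, protoplasmic astrocytes alone and the order of subtypes against each library's median were chosen after seeing the data. Python 3.11.15, numpy 2.4.6, scipy 1.17.1, pandas 2.3.3 and matplotlib 3.10.9 were used. Gene positions are from GENCODE M21.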

Additional observations from a re-analysis of the deposited data

Results flagged for a closer look

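For 3 of the receptors, the difference between E19 and P21 had opposite directions in different cell classes; the difference between classes was not tested, since each age is 1 library. Rora had log2 ratios of 0.76 in excitatory neurons, 1.40 in inhibitory neurons and 0.95 in astrocytes, but -1.92 in the oligodendrocyte lineage. Rorb had 0.96 in astrocytes, -0.51 in inhibitory neurons and -1.76 in the oligodendrocyte lineage. Esrrg had 0.51 in excitatory neurons, 0.59 in inhibitory neurons and 2.01 in astrocytes, but -1.31 in the oligodendrocyte lineage. For the oligodendrocyte lineage, OPCs alone gave 0.30 for Rora, -0.41 for Rorb and 0.45 for Esrrg.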

How the results depend on the processing

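The 19 changes of a gene in a class that were past 1 between E19 and P21 kept their direction in 118 of 122 recomputations and stayed past 1 in 103. The exceptions in direction were in the oligodendrocyte lineage, where Rora (0.30) and Esrrg (0.45) reversed with subtypes weighted alike and with OPCs alone; these settings are the same set of nuclei, since only OPCs had 20 nuclei at both ages. The number of the 8 genes past 1 lower there was then 1. In inhibitory neurons 1 gene was past 1 higher with subtypes weighted alike, and 1 lower less the median of the length class. In astrocytes 4 were higher under median-of-ratios scaling and less the length class median, and 1 lower under those settings, a pseudocount of 20 CPM, nuclei weighted alike and thinning.

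The number of genes on the excitatory side in all libraries was 2 under median-of-ratios scaling and with subtypes weighted alike, and the number past 1 in all 4 libraries was 1 (Rorb) with subtypes weighted alike. Core clock genes past 1 numbered 1 in each class with a pseudocount of 20 CPM, and 7 in excitatory and 8 in inhibitory neurons without the filter. Dopamine neuron genes past 1 numbered 1 and 2 without the filter, and 1 in inhibitory neurons after thinning. The causes were not tested. By their own UMIs, 777 neurons at P21 were inhibitory and 561 excitatory, against 740 and 682 in the deposited table. No paired analysis was possible because each age has 1 library. Levels of a few UMIs, such as those of Nr4a2, are limited by depth. Ranked against the median subtype of each library, the highest subtype of Nr2f2 was EN3 in place of EN11, and that of the other 7 genes was unchanged.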

Other observations

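Thyroid hormone receptor genes differed between the stages of the oligodendrocyte lineage at P21. Thra measured 187 CPM (141 to 243) in the 64 OPCs and 306 CPM (279 to 334) in the 187 myelinating oligodendrocytes of that library. Thrb measured 304 CPM (245 to 373) in the OPCs and 45.3 CPM (35.4 to 57.1) in the myelinating cells, so the genes differed in opposite directions between these cells. Esrrg, which measured 124 CPM (87.0 to 170) in the OPCs, measured 14.0 CPM (8.80 to 21.3) in the myelinating cells.

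In fibrous astrocytes Rora measured 4104, 3798, 3582 and 2884 CPM from E19 to P21, lowest at P21. No interval is given for these steps, and the 48 fibrous nuclei at P4 also held 535 Ttr UMIs, as described above. The part of other cells in these levels was not tested. Protoplasmic astrocytes measured 2648, 3425, 4366 and 6149 CPM of Rora, higher at each age. Endothelial cells held Nr2f2 at 207, 284, 258 and 420 CPM, on 12 to 22 nuclei per library.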
